A study of Mus musculus with 5 samples.

Results

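The water channel and ion transporter genes described here were 8 of the 56941 genes in the deposited count table: Aqp1, Aqp3, Aqp4, Aqp5, Slc4a11, Slc4a4, Slc12a2 and Atp1b2. They were taken by name, as genes of fluid movement in the ciliary body and cornea, and all 8 had a row in the table and passed the count minimum of 10 reads in at least 1 pool. RNA was measured by sequencing in the iridocorneal angle, the ring of tissue at the edge of the cornea through which aqueous humor drains, dissected from mice of both sexes at 12 months of age. There were 3 pools of DBA/2J mice and 2 pools of Gpnmb+ mice, with no treatment. DBA/2J mice carry a truncating mutation of Gpnmb together with the b allele of Tyrp1 and develop pigment dispersion and high eye pressure. Gpnmb+ mice are DBA/2J mice in which the functional Gpnmb allele has been restored, and they keep the b allele of Tyrp1. The iris and ciliary body were taken away in the dissection, but the methods state that remnants of both stayed on the ring. Each pool joined the angles of several mice, described by the study's methods as 3 per pool, whereas the library names hold 3 animal labels for the DBA/2J pools but 2 for those of Gpnmb+.

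Aqueous humor is secreted across the ciliary epithelium. Sodium pumps, cation chloride cotransporters and bicarbonate transporters move ions through the cells, and water follows, in part through aquaporins. The corneal endothelium and the epithelia of the ocular surface use members of the same families to set the water content of the cornea and the volume and composition of tears. Aqp1, Aqp4 and Aqp5 mainly pass water, and Aqp3 passes glycerol as well. Slc4a4 carries sodium with bicarbonate, Slc12a2 carries sodium, potassium and chloride into cells, Slc4a11 is a proton and water conducting protein of the corneal endothelium whose mutations cause corneal endothelial dystrophy, and Atp1b2 is a beta subunit of the sodium pump that is abundant in glia and photoreceptors.

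The promoters of the 3 genes with the highest level per length are shown, since these water channels made up most of the aquaporin RNA. RefSeq windows were matched for 4 of the 8 genes, Aqp1, Aqp3, Aqp5 and Slc4a4, and no window was matched for Aqp4, Slc4a11, Slc12a2 or Atp1b2. Each line gives the 250 bases before the start of the gene in build GRCm38.p6, on the strand of the gene. Aqp1 is on the plus strand at chr6:55336049-55336298, Aqp3 on the minus strand at chr4:41098184-41098433 and Aqp5 on the plus strand at chr15:99590778-99591027. Capitals mark the GC box (GGGCGG, or CCGCCC on the other strand), the TATA box (TATAAA, or TTTATA on the other strand) and the AP-2 motif (GCCNNNGGC, which reads the same on both strands).
Aqp1: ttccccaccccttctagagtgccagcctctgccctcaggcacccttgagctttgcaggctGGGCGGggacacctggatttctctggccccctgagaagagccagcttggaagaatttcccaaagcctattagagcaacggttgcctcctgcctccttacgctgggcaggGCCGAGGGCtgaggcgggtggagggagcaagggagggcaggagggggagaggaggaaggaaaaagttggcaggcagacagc
Aqp3: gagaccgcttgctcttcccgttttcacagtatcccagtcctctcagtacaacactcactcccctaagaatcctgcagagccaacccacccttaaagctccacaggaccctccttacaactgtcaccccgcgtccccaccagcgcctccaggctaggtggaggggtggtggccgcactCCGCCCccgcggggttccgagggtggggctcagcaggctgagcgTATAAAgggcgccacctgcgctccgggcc
Aqp5: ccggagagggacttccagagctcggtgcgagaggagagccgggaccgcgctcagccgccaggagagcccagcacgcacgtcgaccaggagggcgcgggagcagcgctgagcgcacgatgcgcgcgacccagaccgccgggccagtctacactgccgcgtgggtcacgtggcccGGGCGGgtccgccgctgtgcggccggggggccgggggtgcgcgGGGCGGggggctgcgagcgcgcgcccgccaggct
The 3 windows held 62% (Aqp1), 64% (Aqp3) and 78.4% (Aqp5) G and C bases. A TATA box stood 29 bases before the start of Aqp3, and 12.4% of the 32851 RefSeq windows of this length held one. GC boxes began 190 bases before the start in Aqp1, 73 in Aqp3, and 77 and 34 in Aqp5, and 32.7% of all windows held at least 1. The single AP-2 motif was in Aqp1, 81 bases before the start, and 13.7% of all windows held this motif. No motif overlapped another. These matches describe the letters and no binding was measured.

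Each pool had between 43900661 and 49837758 counts on genes. Gpnmb, the gene that distinguishes the strains, had 1946 to 2234 counts in the DBA/2J pools and 110568 to 129659 in the Gpnmb+ pools. The pools also differed in sex-linked RNA. The Y-linked gene Ddx3y had 1567 to 4168 reads in DBA/2J against 0 and 4 in Gpnmb+ pools, although the methods give male mice in both groups, and Xist had 0 to 2417 against 7843 and 9152. The sex makeup of the pools and the genotype cannot be told apart here. In pooled tissue, fewer cells of a type and less RNA per cell cannot be told apart either. An exact rank test of 3 against 2 pools gives no two-sided p under 0.2 for 1 gene. The adjusted p-values therefore come from edgeR's quasi-likelihood test over all 19713 genes past the count minimum, with Benjamini-Hochberg adjustment. Calls required an adjusted p of 0.05 or less together with a fold change of 1.5 or more. All log2 fold changes are DBA/2J over Gpnmb+, so that positive values are higher in DBA/2J, and the median over all genes tested was -0.02. The 6 trabecular meshwork markers of the labelled tissue were detected in every pool, 2 with a log2 fold change above 0 and 4 below (median -0.44), of which Cyp1b1 was called higher (0.81, edgeR adjusted p = 0.0467) and Edn3 lower (-0.86, 0.0392) in DBA/2J. Myoc, the gene of myocilin, was at -1.06 and not called (0.165). The 6 markers had a summed CPM (counts scaled to library size) that went the other way from that median, at 4220 to 5180 in DBA/2J and 2720 to 3410 in Gpnmb+. Chil1, with 128433 to 181748 counts against 95356 and 57899, was the largest part of it in every pool.

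Of the 8 genes, Slc4a11 was called, as lower in DBA/2J, and no gene was called higher. Over all genes tested, 157 of 19713 were called (0.796%), with 0.502% called higher and 0.294% lower. In 5 genes the DBA/2J pools lay entirely to one side of the Gpnmb+ pools. Over all genes tested, 34.5% had pools that did not overlap. Aqp4 and Atp1b2 were on the higher side, as were 17.3% of all genes, and Aqp1, Slc4a11 and Slc12a2 on the lower, as were 17.2%. The same 5 genes had an unadjusted p of at most 0.05, against 15.9% of all genes. The median log2 fold change over the 8 genes was -0.16. DESeq2 called 3 of the genes, Aqp4 as higher and Slc4a11 and Slc12a2 as lower, and it called 927 genes in all (4.7%). With ashr moderation Aqp4 and Slc4a11 passed, against 3.72% of all genes.

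**Figure D1:**
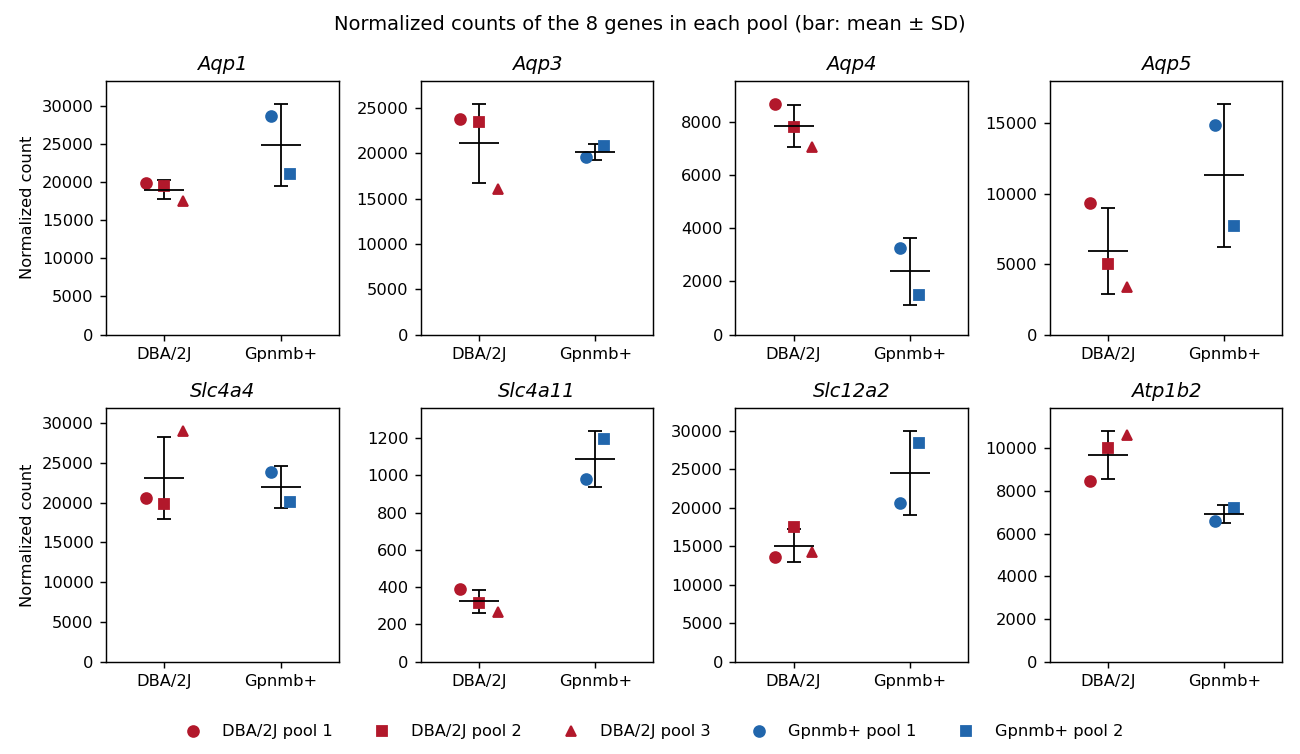
Normalized counts of each gene (vertical axis, reads scaled to the mean library size, from 0) in the 3 DBA/2J pools and the 2 Gpnmb+ pools. Points are pools, horizontal bars are group means and error bars are 1 SD. In Aqp4, Slc4a11, Slc12a2, Atp1b2 and Aqp1 no DBA/2J pool lies within the range of the Gpnmb+ pools, and in Aqp3, Aqp5 and Slc4a4 the groups overlap.

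Slc4a11 (ENSMUSG00000074796) is on chromosome 2 of GRCm39 (minus strand, 130526028 to 130539898). There were 373, 290 and 259 reads in DBA/2J pools 1 to 3 against 1076 and 1261 in Gpnmb+ pools 1 and 2. Both Gpnmb+ pools were well above all DBA/2J pools. Means of normalized counts were 323.3 ± 60.5 (SD, n = 3) for DBA/2J, against 1087.6 ± 149.7 (SD, n = 2) for Gpnmb+, a 3.36-fold higher level in Gpnmb+. On the log2 scale the fold change was -1.75 (standard error 0.19, 95% interval -2.20 to -1.30, adjusted p = 0.0283 from edgeR), and 50 genes of the table had a smaller p-value. DESeq2 gave an adjusted p of 6.26e-13. Slc4a11 is also on the study's own list of genes with lower RNA in DBA/2J, which was drawn from these pools. The paper measured proteins as well, in single eyes that were not pooled. There the mean of the Slc4a11 protein was lower in DBA/2J, but the difference was not significant by the paper's own test. The edgeR call was lost without DBA/2J pool 1, 2 or 3 (adjusted p = 0.0885, 0.114 and 0.0869) and without Gpnmb+ pool 2 (0.118), while the log2 fold change stayed between -1.90 and -1.60.

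Corneal endothelium expresses Slc4a11, and its markers were measured beside it. Of 6 markers, 3 had a log2 fold change above 0, Col8a1 (0.10), Gpc4 (0.11) and Cd200 (0.26), and 3 below. Tfap2b, a transcription factor of the periocular neural crest, was the one marker called, as lower in DBA/2J (-1.43, standard error 0.11, edgeR adjusted p = 0.0189), a call lost under the same omissions as that of Slc4a11 (adjusted p of 0.0627 to 0.0991). Col8a2, a collagen of the endothelial basement membrane, was at -0.40 (adjusted p = 0.229), and no marker was at 0 in any pool. The summed CPM of the 6 markers was 807 to 862 in DBA/2J and 941 to 1050 in Gpnmb+, a smaller gap than that of Slc4a11. Per 100 counts of the summed markers, Slc4a11 had 1.01, 0.784 and 0.719 reads in DBA/2J against 2.25 and 2.46 in Gpnmb+, so that these groups did not overlap. Against Tfap2b alone, per 100 of its counts, the Slc4a11 values were 17.5, 11.8 and 12.3 against 15.9 and 18.5, which overlapped. Tfap2b had the lowest log2 fold change of these markers, and no ratio to another of them alone was taken. The part of endothelial RNA content in the Slc4a11 difference was not tested beyond these ratios, which were chosen after the marker values were seen.

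Slc4a4 (ENSMUSG00000060961, plus strand of chromosome 5, 89034345 to 89387514) encodes the sodium bicarbonate cotransporter that moves bicarbonate across corneal endothelium and ciliary epithelium. It had 19733, 18321 and 27913 reads in DBA/2J against 26112 and 21211 in Gpnmb+. After scaling, DBA/2J pool 3 was the highest and DBA/2J pool 2 the lowest of the 5, so that the groups overlapped. In normalized counts, DBA/2J averaged 23092.1 ± 5104.7 (SD, n = 3), against 21950.5 ± 2651.9 (SD, n = 2) for Gpnmb+. Its log2 fold change was 0.07 with a 95% interval of -0.40 to 0.54 (edgeR adjusted p = 0.891), and it took the other sign, -0.12, without DBA/2J pool 3.

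Across the 10 SLC4 genes, all of which passed the count minimum, 6 log2 fold changes were above 0 and 4 below, with a median of 0.04. Slc4a11 was the single SLC4 gene called. Slc4a10, an exchanger of the choroid plexus and neurons, had 172, 357 and 247 reads in DBA/2J against 672 and 966 in Gpnmb+, and its pools did not overlap. Its log2 fold change was -1.48 (standard error 0.34), with an adjusted p of 0.117 by edgeR and 0.00137 by DESeq2. Slc4a5, a sodium bicarbonate cotransporter of choroid plexus and ciliary epithelium, had the highest level per length of the family, 78.1 CPM per kb of exon on average over the pools. Its log2 fold change was 0.53 (adjusted p = 0.163).

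Aqp4 (ENSMUSG00000024411, minus strand of chromosome 18, 15522451 to 15544039), the water channel of nonpigmented ciliary epithelium, Muller glia and astrocytes, had 8314, 7229 and 6792 reads in DBA/2J against 3571 and 1566 in Gpnmb+. Every DBA/2J pool was above both Gpnmb+ pools, which differed from each other by 1.14 on the log2 scale, against a range of 0.30 within DBA/2J. Means of normalized counts were 7834.3 ± 805.0 (SD, n = 3) for DBA/2J, against 2370.2 ± 1255.9 (SD, n = 2) for Gpnmb+, 3.30-fold higher in DBA/2J. The difference on the log2 scale was 1.72 (standard error 0.33, 95% interval 0.92 to 2.53), and edgeR did not call it (adjusted p = 0.0867), whereas DESeq2 did (3.4e-06). Without Gpnmb+ pool 1 edgeR called it as well (2.40, adjusted p = 0.0204), with the remaining Gpnmb+ pool assumed to vary like the others. Without Gpnmb+ pool 2 it was 1.27 (0.107), and without DBA/2J pool 1, 2 or 3 it was 1.65, 1.73 or 1.80 (edgeR adjusted p of 0.183 to 0.214).

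Markers of nonpigmented ciliary epithelium were measured beside Aqp4. All 8 had a log2 fold change above 0 (median 1.68), 3 of them were called by edgeR, and none was at 0 in any pool. Their summed CPM was 1100 to 1350 in DBA/2J and 441 and 244 in Gpnmb+ pools 1 and 2, with Gpnmb+ pool 2 lowest as it was for Aqp4. Per 100 counts of these markers, Aqp4 had 17.0, 13.8 and 11.2 reads in DBA/2J against 16 and 13.1 in Gpnmb+, values that overlapped. Of 5 Muller glia and astrocyte markers, 4 had a log2 fold change above 0 and 2 were called, with a summed CPM of 4160 to 4630 against 1970 to 2510. Per 100 counts of these glial markers, Aqp4 had 4.49, 3.95 and 3.29 reads in DBA/2J against 2.81 and 1.63 in Gpnmb+, values that did not overlap. The glial sum was mostly Dkk3 and Glul in every pool, so this ratio says little about the other glial markers. Among those, Slc1a3 was called higher (1.42, edgeR adjusted p = 0.0217). Gfap was at 1.09 on 362 to 950 counts (adjusted p = 0.104 by edgeR), and Rlbp1 was at -0.20. The part of the ciliary body remnants and of glial RNA in the Aqp4 difference was not tested beyond these 2 ratios.

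**Figure D2:**
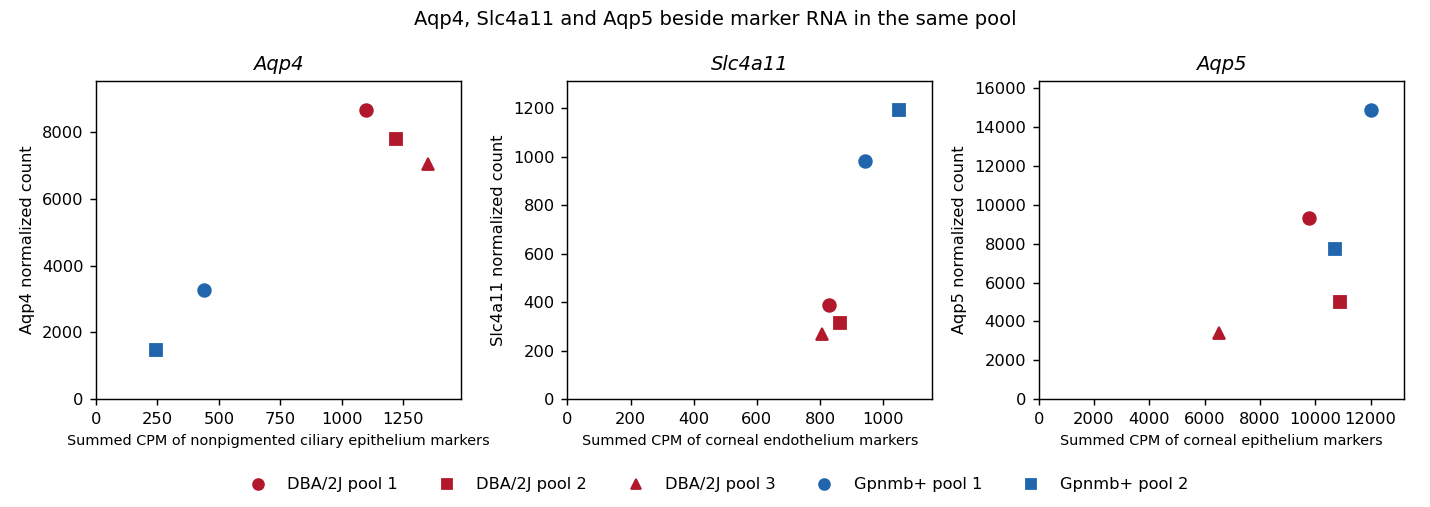
Normalized count of Aqp4, Slc4a11 and Aqp5 (vertical axes) against the summed CPM of markers of nonpigmented ciliary epithelium, corneal endothelium and corneal epithelium (horizontal axes), 1 point per pool and both axes from 0. The Gpnmb+ pools are low on both axes for Aqp4, and for Slc4a11 they are far above the DBA/2J pools while the marker sums span 807 to 1050.

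Aqp4 is anchored at the membrane by the dystrophin complex and works beside glial junction proteins. Of 8 such genes, Mlc1, a membrane protein of astrocyte junctions, was called as higher in DBA/2J. It had 2533, 2737 and 2585 reads in DBA/2J against 772 and 645 in Gpnmb+, and no other gene of the list was called. Its log2 fold change was 2.07 (standard error 0.11, edgeR adjusted p = 0.00894), and the call was lost without DBA/2J pool 2 (adjusted p = 0.0714) or Gpnmb+ pool 2 (0.0694). Per 100 counts of the nonpigmented ciliary epithelium markers, Mlc1 had 5.19, 5.21 and 4.28 reads in DBA/2J against 3.45 and 5.40 in Gpnmb+, so that Gpnmb+ pool 2 was the highest and Gpnmb+ pool 1 the lowest. Dag1, which encodes dystroglycan and had the highest level per length of the list, was at 0.33 (adjusted p = 0.16). Hepacam, the junction partner of Mlc1, had 3 to 25 counts in any pool and a log2 fold change of -1.01 with a 95% interval of -2.63 to 0.62.

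Aqp1 (ENSMUSG00000004655, plus strand of chromosome 6, 55313068 to 55325540), which is found in trabecular meshwork, vascular and corneal endothelium, ciliary epithelium and red cells, had 19102, 18034 and 16904 reads in DBA/2J against 31392 and 22224 in Gpnmb+. All DBA/2J pools were below both Gpnmb+ pools, but the Gpnmb+ pools differed by 0.45 on the log2 scale, more than the mean difference between genotypes. In normalized counts, DBA/2J averaged 18961.4 ± 1247.8 (SD, n = 3), against 24838.7 ± 5380.6 (SD, n = 2) for Gpnmb+. As a log2 fold change this was -0.39 (standard error 0.15, 95% interval -0.76 to -0.02), which was not called by edgeR (adjusted p = 0.289) or DESeq2 (0.181). Without Gpnmb+ pool 1 it was -0.15. The gene starts 6.27 megabases beyond the end of Gpnmb on the same chromosome. Summed CPM of 7 vascular endothelial markers overlapped between groups (409 to 545 in DBA/2J and 418 to 451 in Gpnmb+), as did that of 6 erythroid markers (79 to 128 and 50.1 to 170). The sums of the corneal endothelium, given with Slc4a11, were lower in every DBA/2J pool, as Aqp1 was, and those of trabecular meshwork and nonpigmented ciliary epithelium were higher. Per 100 counts of the corneal endothelium markers, Aqp1 had 51.9, 48.7 and 47 reads in DBA/2J against 65.8 and 43.4 in Gpnmb+, which overlapped. The ratios to erythroid markers overlapped as well. Those to vascular endothelial markers were lower in DBA/2J without overlap, at 78.8, 103 and 75.3 against 137 and 109. So were those to trabecular meshwork markers (8.29, 9.96 and 8.25 against 18.1 and 16.7) and nonpigmented ciliary epithelium markers (39.2, 34.4 and 28 against 140 and 186). The part of these tissues in the Aqp1 values was not tested further.

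Aqp3 (ENSMUSG00000028435, minus strand of chromosome 4, 41092722 to 41098183), a water and glycerol channel of conjunctival and corneal epithelium, had 22821, 21701 and 15496 reads in DBA/2J against 21433 and 21963 in Gpnmb+. Both Gpnmb+ pools lay within the range of the DBA/2J pools, of which pool 3 was the lowest. Means of normalized counts were 21083.5 ± 4335.0 (SD, n = 3) for DBA/2J, against 20171.7 ± 870.2 (SD, n = 2) for Gpnmb+. This gave a log2 fold change of 0.06, with a 95% interval of -0.39 to 0.51 (edgeR adjusted p = 0.901), and it took the other sign without DBA/2J pool 1 (-0.03) or pool 2 (-0.02). Summed CPM of 6 conjunctival markers also overlapped, at 2430 to 3260 in DBA/2J and 2900 to 3340 in Gpnmb+. Per 100 counts of these, Aqp3 had 15.9, 15.5 and 14.3 reads in DBA/2J against 14.6 and 13.5 in Gpnmb+, which overlapped. The ratio to the corneal epithelium markers, given with Aqp5, was higher in DBA/2J without overlap, at 5.26, 4.65 and 5.32 against 3.52 and 4.19. The part of these tissues in the Aqp3 values was not tested.

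Aqp5 (ENSMUSG00000044217, plus strand of chromosome 15, 99488532 to 99492710), the water channel of corneal epithelium and lacrimal acini, varied more among the DBA/2J pools than any other of the 8 genes. It had 8965, 4638 and 3285 reads in DBA/2J against 16324 and 8173 in Gpnmb+, so that DBA/2J pool 1 was above Gpnmb+ pool 2. In normalized counts, DBA/2J averaged 5915.6 ± 3067.0 (SD, n = 3), against 11315.0 ± 5062.4 (SD, n = 2) for Gpnmb+. The range within DBA/2J was 1.45 and that within Gpnmb+ 0.95 on the log2 scale, against a log2 fold change of -0.94 (standard error 0.46, 95% interval -2.05 to 0.18, edgeR adjusted p = 0.384). Leaving out 1 pool moved it between -1.43 (without DBA/2J pool 1) and -0.38 (without Gpnmb+ pool 1).

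Epithelial RNA also differed between pools. Krt12, a keratin of the corneal epithelium, had 11298, 4970 and 421 reads in DBA/2J against 86337 and 27106 in Gpnmb+, with the pools in the same order as for Aqp5 within each genotype. Of the other 5 markers of this epithelium, Krt5 and Krt14 had their counts in that order too, whereas Krt15, Aldh3a1 and Upk1b were higher in Gpnmb+ pool 2 than in pool 1. Krt14 was at 0.31 and the other markers were below 0, with Aldh3a1 at -0.70. Summed CPM of the 6 corneal epithelium markers was 6530 to 10900 in DBA/2J and 10700 to 12000 in Gpnmb+, and none of them was called. For each 100 counts of these markers, Aqp5 had 2.07, 0.993 and 1.13 reads in DBA/2J against 2.68 and 1.56 in Gpnmb+, which overlapped. Krt5 and Krt15 made up most of this sum in every pool, so the ratio says little about Krt12. All 4 lacrimal gland markers past the count minimum had a log2 fold change below 0, and 2 were called, with a summed CPM of the 5 markers of 2.00 to 3.32 in DBA/2J and 15.3 to 21.2 in Gpnmb+. Dmbt1, the lacrimal marker below the count minimum, had 0 counts in 2 pools and at most 7 in the others. Per 100 counts of the scarce lacrimal markers, Aqp5 went the other way without overlap. It had 10100, 4030 and 2220 reads in DBA/2J against 2100 and 790 in Gpnmb+. The part of these tissues in the Aqp5 values was not tested beyond these ratios. In GENCODE M39, 374 exonic bases of Aqp5 overlap a long noncoding RNA on the opposite strand, Gm34765, which had no row in the table, and since no source used here gives the strand setting of the counting, reads of the overlap cannot be assigned.

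Among the 12 aquaporins, 7 passed the count minimum and none was called. Aqp8, Aqp9 and Aqp11 passed it at 16 to 260 counts in any pool. Mip, Aqp2, Aqp6, Aqp7 and Aqp12 were at 8 counts or fewer in every pool. As a share of the summed CPM per kb of all 12 genes, Aqp3 made up 51.4% to 57.1% in DBA/2J and 40.6% and 52.8% in Gpnmb+ pools 1 and 2. Aqp1 followed with 27.3% to 34.5% and 32.8% to 36.6%. Aqp4 contributed 5.31% to 6.29% in DBA/2J and 1.05% to 1.89% in Gpnmb+, so that these ranges did not overlap, whereas those of the other members of the family that were abundant did.

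Slc12a2 (ENSMUSG00000024597, plus strand of chromosome 18, 58011164 to 58080812) encodes the cotransporter that loads secretory epithelia with chloride, including the pigmented ciliary epithelium and lacrimal gland. It had 12999, 16199 and 13664 reads in DBA/2J against 22584 and 29926 in Gpnmb+, with both Gpnmb+ pools above all DBA/2J pools. Means of normalized counts were 15062.5 ± 2110.0 (SD, n = 3) for DBA/2J, against 24465.1 ± 5456.8 (SD, n = 2) for Gpnmb+, 1.62-fold higher in Gpnmb+. In log2 terms the difference was -0.70 (standard error 0.18, 95% interval -1.13 to -0.27), not called by edgeR (adjusted p = 0.144) and called by DESeq2 (-0.69, adjusted p = 0.00775). Moderation of the DESeq2 value with ashr brought it to -0.54, under the fold change minimum. With a pool left out, the edgeR value ranged from -0.91 (without Gpnmb+ pool 1) to -0.45 (without Gpnmb+ pool 2). Lacrimal gland markers, 2 of which were called lower, are given with Aqp5, and those of pigment cells had a summed CPM that overlapped, at 3410 to 4500 in DBA/2J and 3660 to 4280 in Gpnmb+. That sum was mostly Dct and Tyrp1. Of the 7 pigment cell markers, 5 had a log2 fold change below 0, and Slc45a2, a melanosomal transporter, was called lower (-2.46, edgeR adjusted p = 0.0262). Per 100 counts of the pigment cell markers, Slc12a2 had 8.57, 10.7 and 6.81 reads in DBA/2J against 10.4 and 16.7 in Gpnmb+, which overlapped. Per 100 counts of the scarce lacrimal markers the direction was the other one, with 14600, 14100 and 9230 reads against 2900 and 2890. The part of these tissues in the Slc12a2 values was not tested beyond these ratios.

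Of 9 SLC12 genes, 7 passed the count minimum and none was called, with 5 log2 fold changes above 0, 2 below and a median of 0.21. Slc12a1 and Slc12a3, the cotransporters of the kidney, were at 6 counts or fewer in every pool. Slc12a9 was at 0.37 (95% interval -0.01 to 0.75). The kinases of the WNK pathway, which sets the activity of SLC12 cotransporters, gave 7 genes past the minimum and no call. Wnk4 was at 0.82 and Wnk2 at 0.68, with adjusted p-values of 0.251 and 0.207 by edgeR, and Sgk1, the gene of highest level in the list, was at 0.14.

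Atp1b2 (ENSMUSG00000041329, minus strand of chromosome 11, 69487651 to 69496851) had 8108, 9278 and 10211 reads in DBA/2J against 7240 and 7619 in Gpnmb+. The groups did not overlap. In normalized counts, DBA/2J averaged 9682.2 ± 1113.0 (SD, n = 3), against 6908.6 ± 427.8 (SD, n = 2) for Gpnmb+, 1.40-fold higher in DBA/2J. This was a log2 fold change of 0.49 (standard error 0.12, 95% interval 0.19 to 0.78), with an adjusted p of 0.144 by edgeR and 0.0102 by DESeq2, and it was under the fold change minimum in both. Per 100 counts of the nonpigmented ciliary epithelium markers the direction was the other one, with 16.6 to 17.7 reads in DBA/2J against 32.4 and 63.8 in Gpnmb+. The ratio to the Muller glia and astrocyte markers, whose sum is given with Aqp4, was also lower in DBA/2J without overlap. It was 4.38, 5.07 and 4.95 against 5.69 and 7.92. Summed CPM of 6 photoreceptor markers was 574 to 853 in DBA/2J, and 345 and 1890 in Gpnmb+ pools 1 and 2.

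The other beta subunits stood beside it. Atp1b3 had 40939, 39314 and 42657 reads in DBA/2J against 30599 and 21304 in Gpnmb+, with a log2 fold change of 0.84 (standard error 0.16, edgeR adjusted p = 0.082, DESeq2 2.59e-05). It was the sodium pump gene of highest level per length and made up 77.1% to 79.4% of summed beta subunit CPM per kb in DBA/2J and 62.1% to 70.7% in Gpnmb+. Atp1b2 took 7.82% to 9.18% in DBA/2J and 8.32% to 11% in Gpnmb+, so that its share overlapped although its normalized counts did not. Atp1b1, the remaining beta subunit, took 12.8% to 13.7% against 21.0% to 26.8%.

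Of the 14 pump subunits and FXYD regulators, all past the minimum, none was called, and 6 log2 fold changes were above 0 and 8 below. Fxyd4 was at -1.54 on 3 to 58 counts per pool (adjusted p = 0.348).

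**Figure D3:**
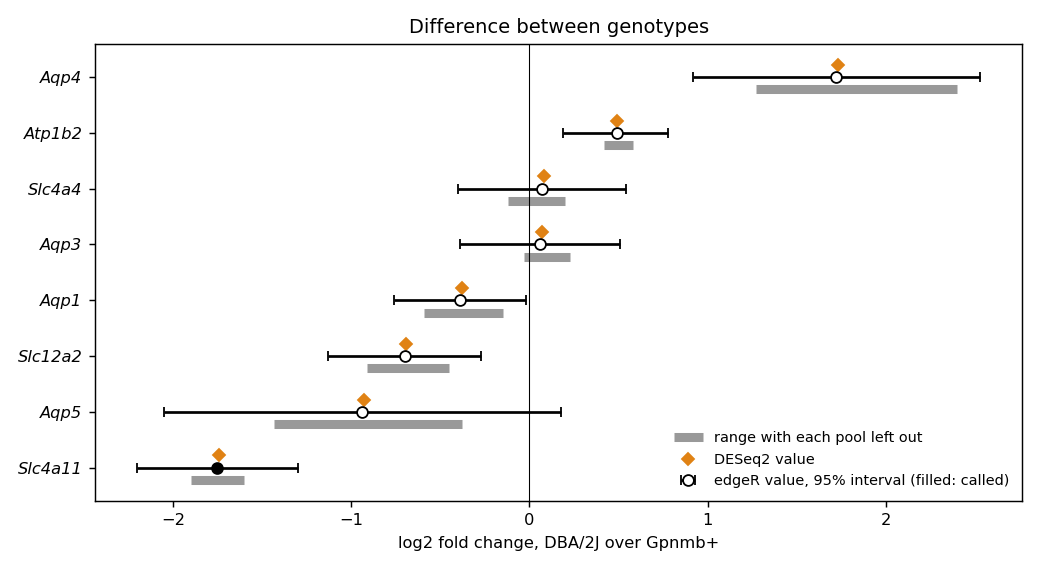
Log2 fold change of each gene, DBA/2J over Gpnmb+ (horizontal axis), in order of size. Circles are edgeR values with 95% intervals, filled where called, diamonds are DESeq2 values and grey bars span the values with each pool left out in turn. The intervals of Slc4a11, Slc12a2, Aqp1, Atp1b2 and Aqp4 leave out 0, and those of Aqp3, Aqp5 and Slc4a4 include it.

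Levels between genes were compared as CPM per kb of merged exon length, averaged over the 5 pools. Aqp3 was the highest at 245 ± 37.0 (SD over pools), and Aqp1 followed at 155 ± 31.1. Aqp3 was above Aqp1 in 5 of 5 pools, although their ranges, 190 to 281 and 127 to 208, overlapped. Aqp5 came next at 63.9 ± 35.3, with no overlap with Aqp1. Slc4a4 (35.7 ± 6.15), Slc12a2 (32.0 ± 10.2), Atp1b2 (27.6 ± 5.55) and Aqp4 (18.6 ± 10.3) followed, and each overlapped its neighbours in this order. Neighbouring ranks thus did not differ beyond the spread between pools, whereas Slc4a4, at 31.2 to 45.7, lay above all pools of Aqp4, at 4.88 to 28.5. Slc4a11 was by far the lowest at 2.16 ± 1.46, with a highest pool (4.09) below the lowest pool of Aqp4 (4.88). Aqp3 and Aqp1 were above 99.5% and 99.2% of the genes tested on this scale, and Slc4a11 above 48.8%. By group means, Slc12a2 was the seventh of the 8 in DBA/2J (25.6 ± 3.59, n = 3) and the fourth in Gpnmb+ (41.6 ± 9.28, n = 2).

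**Figure D4:**
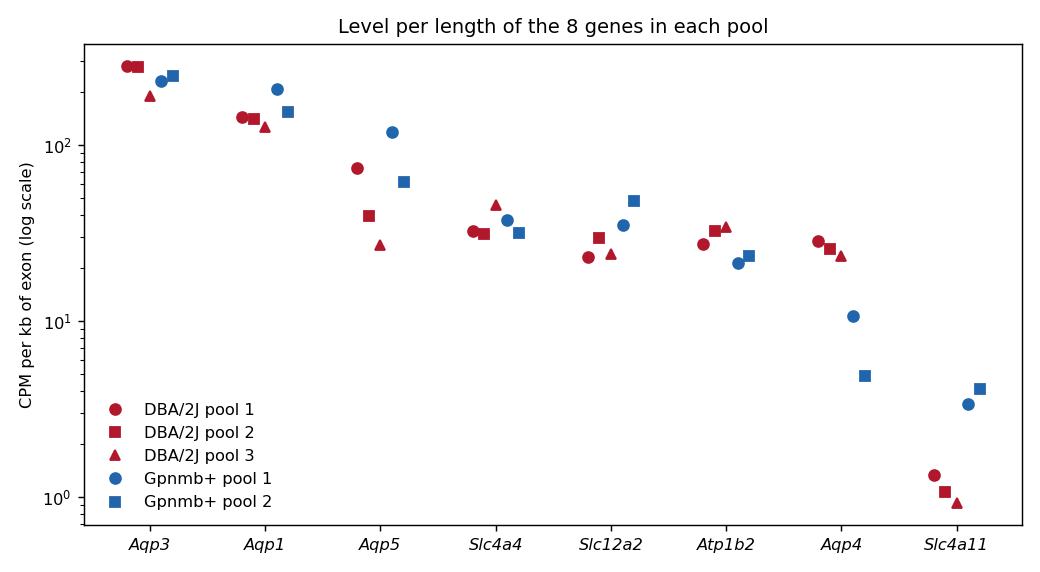
Level of each gene in each pool as CPM per kb of exon (vertical axis, log scale), ordered by the mean over pools. Aqp3 is highest at 190 to 281 and Slc4a11 lowest at 0.921 to 4.09, with the Gpnmb+ pools above the DBA/2J pools in Slc4a11 and below them in Aqp4.

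The exchangers and channels that supply bicarbonate, protons and chloride to these transporters gave no call in edgeR. Of 9 SLC9 sodium proton exchangers, 5 log2 fold changes were above 0 and 4 below. Slc9a7, an exchanger of internal membranes, was at 0.82 (edgeR adjusted p = 0.115) and Slc9a3 had 0 to 10 counts per pool and was at -0.96. Of 11 SLC26 anion exchangers, 9 passed the minimum. Slc26a4, which encodes pendrin, had 10552, 12004 and 14558 reads in DBA/2J against 8800 and 5184 in Gpnmb+, with a log2 fold change of 1.01 (standard error 0.24, edgeR adjusted p = 0.131, DESeq2 0.00142). Its pools did not overlap, and it was also the SLC26 gene of highest level. Slc26a9 was at 0.77 on 18 to 35 counts.

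Of 15 chloride channel genes, 13 passed the minimum, 8 with a log2 fold change above 0 and 5 below. Best2, the bestrophin of nonpigmented ciliary epithelium and one of its 8 markers here, had 2531, 2557 and 2901 reads in DBA/2J against 1656 and 605 in Gpnmb+ (1.43, edgeR adjusted p = 0.163, DESeq2 0.0027). The 4 carbonic anhydrases of fluid transport gave 2 values on each side of 0 and had the lowest median of any list, -0.50. Car12, an enzyme of the cell surface, had 1607, 1713 and 1696 reads in DBA/2J against 2941 and 4559 in Gpnmb+ (-0.99, standard error 0.19, edgeR adjusted p = 0.0879). Car4 was at -1.78 on 14 to 88 counts, and Car14, the highest in level, did not separate the groups (0.00, 95% interval -0.37 to 0.37).

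Over the 10 lists together, without the 8 genes themselves, 80 of 91 genes passed the count minimum, 48 with a log2 fold change above 0 and 32 below. Of these, edgeR called 1, Mlc1 (1.25%), against 0.796% of all genes tested. DESeq2 called 13 of the 80, against 4.7% of all genes tested. Of the 13, 6 were higher in DBA/2J, among them Mlc1, Best2, Slc26a4, Atp1b3 and Slc9a7. The 7 lower included Car4, Slc4a10, Car12, Fxyd2, Fxyd6 and Slc26a7. The median log2 fold change of the 80 genes was 0.07.

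**Figure D5:**
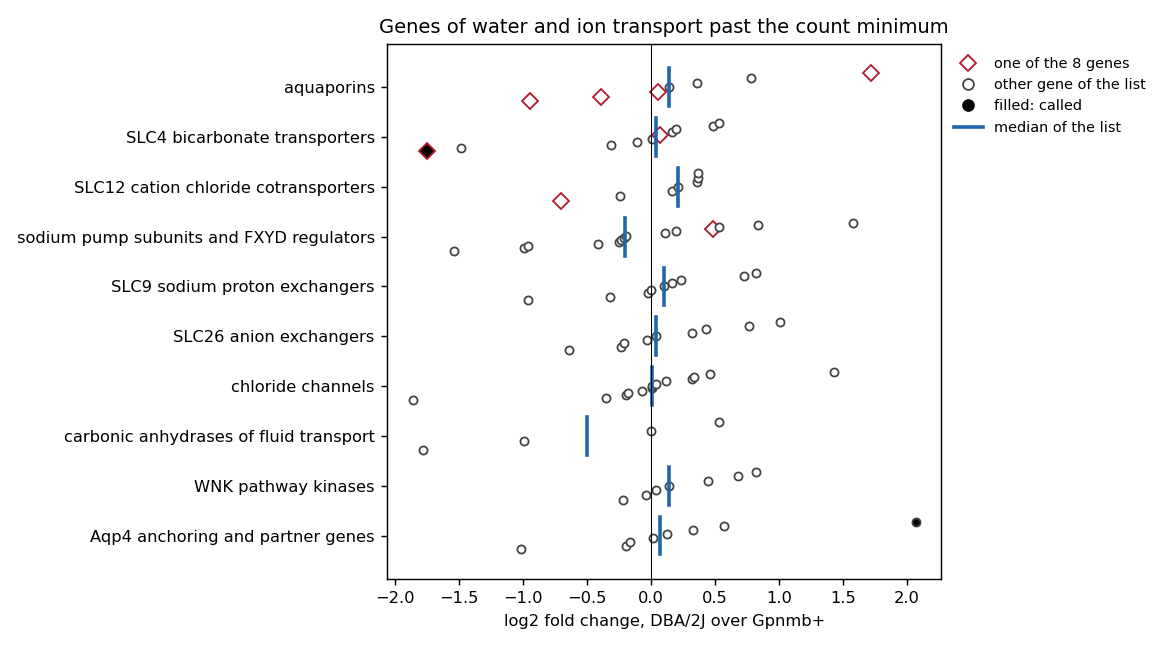
Log2 fold change, DBA/2J over Gpnmb+ (horizontal axis), of every gene past the count minimum in 10 lists of water and ion transport genes (rows). Red diamonds are the 8 genes, circles the others, filled symbols were called and blue bars are list medians. Slc4a11 at -1.75 and Mlc1 at 2.07 are the filled symbols, and the list medians lie between -0.50 and 0.21.

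The genes whose profiles were nearest to each of the 8 were found by Euclidean distance between log2 CPM values over the 5 pools, centred per gene, among 13882 genes. Nearest to Aqp4 was Cldn2 at 0.289, a claudin that forms pores in leaky epithelia and is one of the nonpigmented ciliary epithelium markers, followed by Lrrtm1 (0.302) and 4930594M22Rik (0.354). Nearest to Slc4a11 were Pou3f3, a transcription factor (0.404), Ctxnd1 (0.442) and the urea transporter Slc14a1 (0.482), so that it had no neighbour as close as the other genes had. For Slc12a2 they were 2410006H16Rik (0.124), Kank4 (0.145) and the claudin Cldn3 (0.148). Aqp1 had Hmgb2, a chromatin protein (0.082), Pid1 (0.083) and the transcription factor Maf (0.122). Atp1b2 had Sall2 (0.07), the brain creatine kinase Ckb (0.087) and 1700088E04Rik (0.091). Aqp5 was followed by Irf7, an interferon regulator (0.249), Or2v1 (0.276) and Chek1, a checkpoint kinase (0.362). The nearest genes to Aqp3 were Gbp9 (0.06), 9930014A18Rik (0.121) and Slc52a3, a riboflavin transporter (0.128), and those to Slc4a4 were Cdh22 (0.072), St6galnac3 (0.1) and Paqr7 (0.105). These distances rest on 5 pools that share libraries and are given as a description.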

How the data were processed

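RNA from 5 pools of iridocorneal angle was analysed. The authors used fastp for trimming and STAR for alignment to GRCm39, and the deposited values are raw counts per gene of reads with a single alignment. DESeq2 is named in the submitters' processing notes. Names, positions and exon lengths came from GENCODE M39, which held 56323 of 56941 identifiers. No 2 libraries were identical.

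Tests ran in edgeR 4.0.16 under R 4.3.3 (TMM, quasi-likelihood test, no covariate, Benjamini-Hochberg adjustment, at least 10 counts in at least 1 pool), with ashr 2.2.63, DESeq2 1.42.0 and limma 3.58.1 as alternatives. The edgeR test was checked on simulated data, and the alternatives were not. Standard errors were computed as the absolute log2 fold change over the square root of that test's F statistic. The 95% intervals were computed from these standard errors and the degrees of freedom of the test. Tables and figures were made with pandas 2.3.3, numpy 2.4.6 and matplotlib 3.10.9 in Python 3.11.15. Log2 CPM used a prior count of 2. The 8 genes and all lists were chosen with earlier results of these data known. Named in each list were called genes, the 2 with the largest absolute log2 fold change and the 1 of highest level per kb, and for each of the 8 genes the 3 nearest profiles with mean log2 CPM of at least 1. Alternatives were DESeq2 with and without ashr, DESeq2 size factors in edgeR, limma-voom, filterByExpr, no count filter, no fold change minimum, unadjusted p-values, the replicate number as a block, each pool left out, and, for levels, DESeq2 size factors and the longest transcript. The marker Chil1 is Chi3l1 in GENCODE. Genes named only for a DESeq2 call were chosen after their values were seen. Pooling averages over mice, so the depth of 43900661 to 49837758 counts per pool limits these values less than the number of pools. Some genes that the naming rule picked are not reported here.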

Additional observations from a re-analysis of the deposited data

How the results depend on the processing

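The number of genes called over the whole table moved from 157 to 927 with DESeq2, 734 with ashr moderation, 360 without a count filter and 1710 with unadjusted p-values, and ran from 1 to 217 with a pool left out. Of the 8 genes, 1 was called, against 3 with DESeq2, 2 with ashr, 2 without a count filter, 3 with unadjusted p-values and 0 to 2 with a pool left out. Of the other pathway genes 1 was called, against 13, 12, 2 and 15 under the same settings, 2 with the replicate block and 0 to 5 with a pool left out. The causes were not tested. Calls over the table without DBA/2J pools 1, 2 and 3 and Gpnmb+ pool 2 numbered 6, 1, 17 and 2.

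Pool numbers give 2 pairs, with correlations of deviations of 0.279 and 0.254, and were not taken as pairing the pools. With the number as a replicate block, Slc4a11 remained called (-1.63, adjusted p = 0.0443 by edgeR), Fxyd6 joined Mlc1, and Slc4a4 turned to -0.12. Leaving out a pool gave -0.12 to 0.20 for Slc4a4 and -0.03 to 0.23 for Aqp3. Against summed marker counts, an alternative added after the data were seen, Aqp4 was at -0.06 in place of 1.72 (nonpigmented ciliary epithelium), Slc4a11 at -1.49 in place of -1.75 (corneal endothelium), and Aqp5 at -0.60 in place of -0.94 and Slc12a2 at -0.34 in place of -0.70 (both corneal epithelium). Other ratios changed direction as well. Among them, those of Atp1b2 to nonpigmented ciliary epithelium and glial markers and of Slc12a2 and Aqp5 to lacrimal gland markers are given with those genes. Those of Aqp1 and Slc4a11 to the scarce lacrimal gland markers also did so. Apart from such ratios to markers, the fold changes of the genes other than Slc4a4 and Aqp3 kept their sign in every fit run. The order of levels was the same with DESeq2 size factors and with the length of the longest transcript, although the latter moved Slc4a4 from 35.7 to 59.2, Slc12a2 from 32.0 to 50 and Atp1b2 from 27.6 to 47.5 CPM per kb, and 0 to 2 genes took another rank with a pool left out. The 2 Gpnmb+ pools set the precision of every value, and without 1 of them the remaining pool is assumed to vary like the others.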
